A study of Mus musculus with 36 samples.

Results

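Transcripts that mark the B cell lineage were followed in RNA-seq libraries of mouse CD4+ T cells. These 7 genes, Cd79a, Cd79b, Ms4a1, Ebf1, Pax5, Igkc and Ighm, were found by their names among the 56748 genes of the table of the authors, and all 7 were present. They had been picked because such markers stood higher in naive HP1g KO than in naive HP1g WT cells, so that difference is described below and not tested. The libraries came from 12 groups, which crossed 2 mouse lines (HP1a and HP1g), 2 genotypes (WT and KO) and 3 cell states, with 3 libraries per group. One library, Tconv with Treg HP1g KO replicate 3, was left out here as it was by the authors, which left 35. HP1a KO cells carried a germline deletion of Hp1a, obtained from a floxed allele with CMV-cre, and their WT controls were littermates. In HP1g KO mice, the floxed Hp1g gene was deleted by Cd4-cre, thus in T cells, and WT controls were floxed littermates without Cre. Both lines had a mixed 129/Sv and C57BL/6 background, and the mice were young adults. Naive cells were splenic CD4+ T cells enriched with a magnetic negative selection kit, without FACS. Tconv were such naive cells after transfer into irradiated mice grafted with a mix of B6 and B6D2F1 bone marrow, either alone or with ex vivo expanded WT Treg. They were recovered by CD4 beads and FACS about 3 weeks later, in a gate set on CD4, TCR Vβ6, Thy1.1 and the CD45 and H-2K alleles that named no B cell marker.

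The B cell receptor is a membrane immunoglobulin, whose heavy chain starts as the mu chain (Ighm) and whose light chain is mostly kappa (Igkc) in mice. It signals through the paired chains CD79A and CD79B. MS4A1 (CD20) is a surface protein of mature B cells, and EBF1 and PAX5 are the transcription factors that specify the lineage and hold it. An expressed immunoglobulin chain needs a rearranged variable segment joined to its constant gene, whereas an unrearranged constant gene can be transcribed without one. Conventional CD4+ T cells do not display a B cell receptor, and B cells share spleen and lymph nodes with them.

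The depth was even, with 37029519 to 63042245 estimated counts per library. The smallest signal taken as above counting error, 3 counts, equalled 0.0446 to 0.0816 counts scaled to library size (CPM with TMM factors, the unit of all levels below). The T cell identity of the libraries was plain, since Cd3e ranged from 787 to 1644 CPM and Cd4 from 632 to 1345 CPM. Cbx5, which encodes HP1a, ranged from 9.25 to 19.7 CPM in HP1a KO against 18.6 to 61.9 CPM in HP1a WT libraries. Cbx3, which encodes HP1g, ranged from 59.4 to 80.8 CPM in HP1g KO against 79.5 to 200.1 CPM in HP1g WT libraries. The labels do not say whether the 3 libraries of a group came from separate mice, so p-values measure the spread between these libraries only.

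The 7 transcripts were not equally abundant. Per kilobase of exon, the median level of Ighm in naive libraries was 348 CPM, above the 231 CPM per kilobase of Cd3e and the 176 of Cd4. Igkc followed with 6.51 CPM per kilobase, then Cd79a with 1.46, Cd79b with 0.802 and Ms4a1 with 0.152. Ebf1 and Pax5 were lowest, at 0.0311 and 0.00833 CPM per kilobase. The members therefore did not keep 1 common ratio to each other, and Ighm alone was, per kilobase, as abundant as genes that define T cells. In CPM, not divided by length, the naive median of Ighm was 656, below 944 for Cd3e and 793 for Cd4. In the order of the 12 group means, neighbouring groups overlapped in 11 of 11 steps for Cd79a, Ebf1 and Igkc, in 10 of 11 for Cd79b, Ms4a1 and Pax5 and in 8 of 11 for Ighm. The steps without overlap for Ighm lay below naive HP1g KO, below naive HP1a WT, which parted all naive from all other groups, and below Tconv with Treg HP1g KO.

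**Figure D1:**
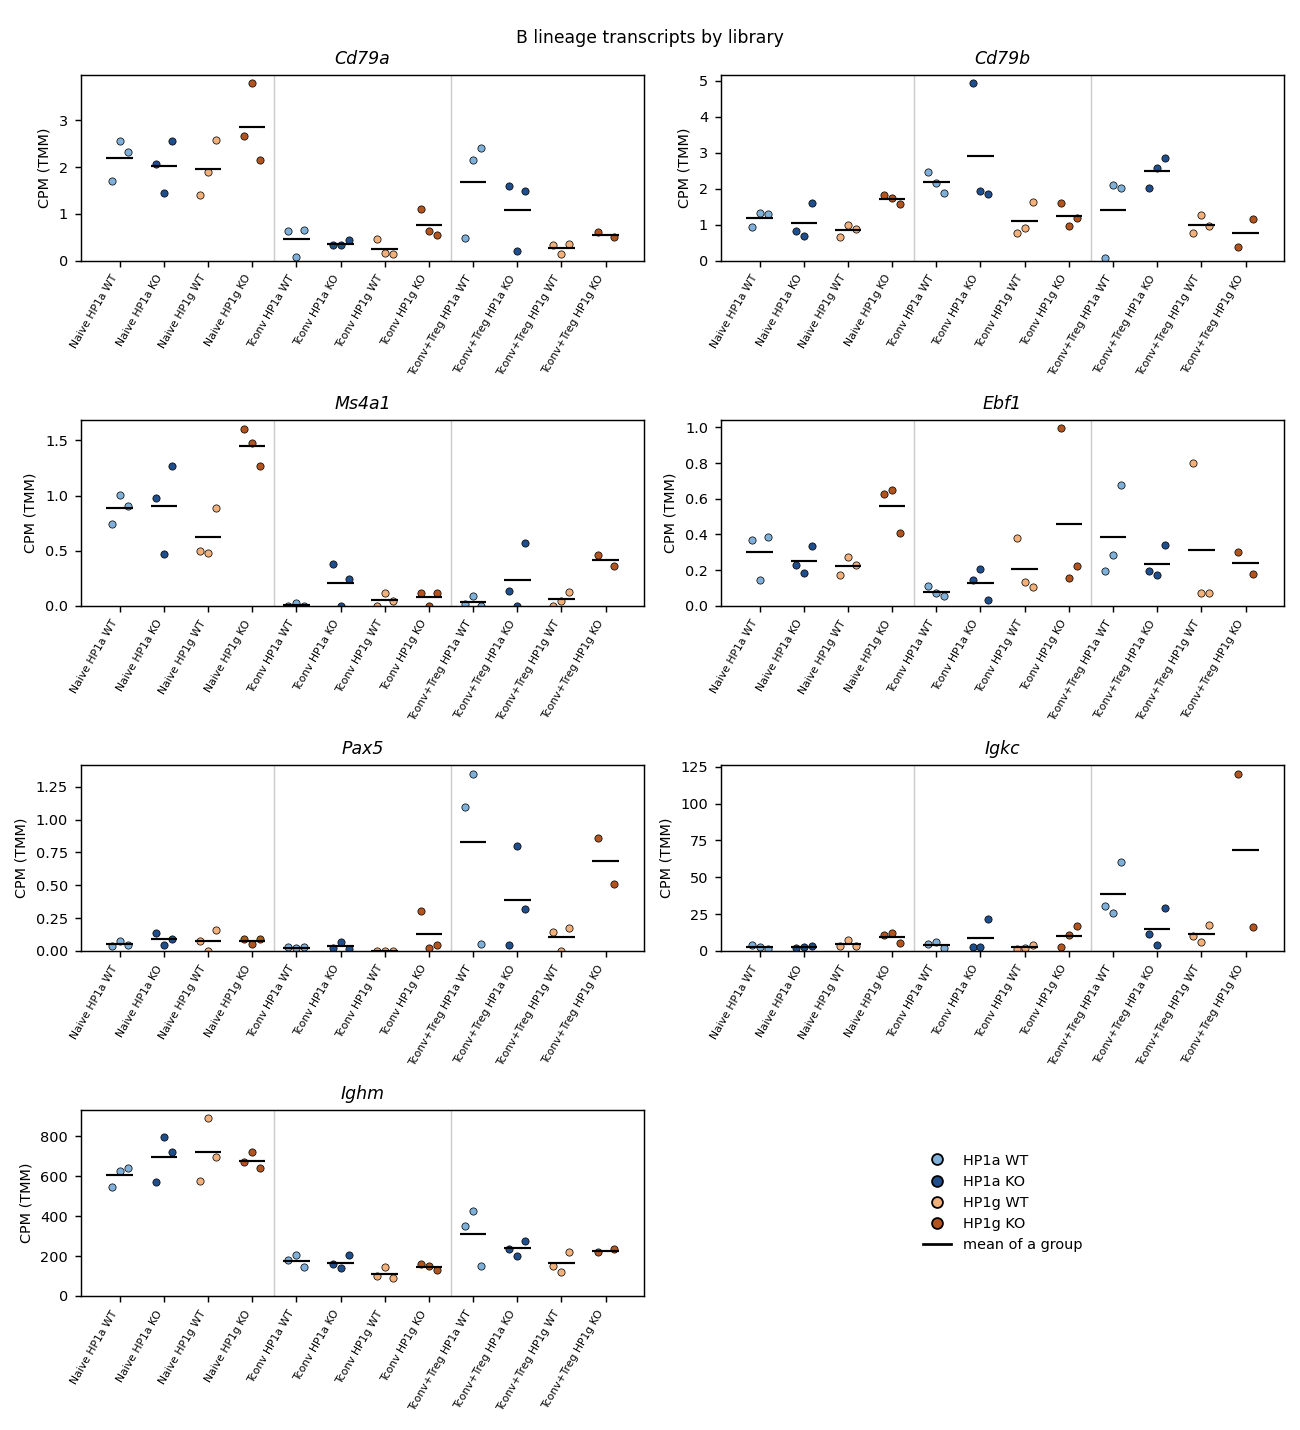
Level of each of the 7 transcripts (CPM, y axis, starting at 0) in the 35 libraries, by group (x axis); points are libraries, coloured by line and genotype, and the horizontal lines are group means. Ighm was highest in all naive groups, Ms4a1 and Cd79a were mostly higher in naive than in Tconv groups, and the highest Igkc value (120.4 CPM) was in a Tconv with Treg HP1g KO library.

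The contrast behind the choice of these genes came first. In naive HP1g WT libraries, Ms4a1 was at 0.495, 0.481 and 0.891 CPM, against 1.61, 1.47 and 1.26 CPM in naive HP1g KO. Cd79b was at 0.669, 1.003 and 0.865 CPM in WT and 1.82, 1.75 and 1.58 CPM in KO libraries. For Ebf1, the values were 0.173, 0.272 and 0.229 CPM in WT and 0.626, 0.649 and 0.406 CPM in KO. These 3 genes did not overlap between the groups, and each stood higher in KO, with fitted log2 fold changes of 1.24 ± 0.35 (SE), 1.04 ± 0.27 and 1.31 ± 0.39. Among the 14939 genes that passed the filter on low counts, 10.1% were higher without overlap in KO. The other members did not separate. Cd79a (1.41, 1.902 and 2.57 CPM in WT, 2.66, 3.79 and 2.14 in KO) and Igkc (3.02, 7.65 and 3.41 CPM in WT, 10.8, 12.4 and 5.55 in KO) had higher means in KO but shared part of their range. Ighm was at 575, 890.2 and 695 CPM in WT and 670.4, 720.1 and 641 CPM in KO, a log2 fold change of -0.07 ± 0.17. Ighm, the most abundant of the 7, thus goes against the label of markers higher in KO. Pax5 lay between 0 and 0.157 CPM in these 6 libraries and did not pass the filter.

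Variable segments of the kappa chain were more abundant in the naive libraries with more Igkc. The summed level of the 160 Igkv segments was 1.16, 3.01 and 1.05 CPM in naive HP1g WT and 5.004, 5.07 and 2.44 CPM in naive HP1g KO libraries. The number of Igkv segments with at least 3 counts was 4 to 11 in WT and 7 to 16 in KO. These libraries thus held several kappa segments at low counts rather than a single one. Over all 12 naive libraries, Igkv segments summed to 30.8 to 81.1 (median 42.4) CPM per 100 CPM of Igkc. For the heavy chain, in contrast, the 183 Ighv segments summed to 0.0534 to 0.445 (median 0.0942) CPM per 100 CPM of Ighm. The constant gene thus outweighed its variable segments far more for Ighm than for Igkc. Segments resemble each other, so the split of reads among them is uncertain, whereas sums are less affected.

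Other marker lists gave a measure of what else moved in this contrast. The B cell surface receptors (Cr2, Fcer2a, Cd180, Tnfrsf13c, Cd40 and Fcrla) summed to 0.648 to 1.31 CPM in naive HP1g WT and 2.699 to 3.69 CPM in naive HP1g KO. The MHC class II list summed to 14.6 to 21.1 and 22.3 to 31.98 CPM, also without overlap. The erythroid list was higher in KO without overlap as well, with 7.05 to 38.3 and 48.8 to 59.2 CPM. The myeloid list summed to 5.27 to 11.7 and 8.86 to 11.5 CPM and overlapped, as did the B cell receptor list (49.6 to 81.9 and 43.02 to 51.6 CPM). The transcription factor list (9.38 to 15.1 and 13.8 to 16.4 CPM) and the plasma cell list (102.8 to 133.2 and 130.3 to 163.5 CPM) also overlapped. So did the precursor list (13.3 to 16.3 and 11.7 to 13.4 CPM), with a lower median in KO. The dendritic, CD8 T or NK and T cell lists overlapped too. In bulk RNA, more cells of a type and more RNA per cell cannot be told apart, and the part of other cells in the difference was not tested.

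In the HP1a line, which the choice did not use, no member was called between naive KO and WT cells. Of 6 members that passed the filter, edgeR's quasi-likelihood test called 0 (Benjamini-Hochberg adjusted p under 0.05 and an absolute log2 fold change above 1), 0 had an unadjusted p under 0.05, and DESeq2 called 0. The share of all genes called was 0%. Ms4a1 was at 0.739, 1.01 and 0.906 CPM in WT and 0.977, 0.465 and 1.27 CPM in KO. Cd79b was at 0.924, 1.33 and 1.29 and 0.818, 0.697 and 1.603 CPM. The KO values of both spanned those of WT. The fitted log2 fold changes were 0.03 ± 0.41 for Ms4a1, -0.19 ± 0.38 for Cd79b, -0.26 ± 0.51 for Ebf1 and 0.20 ± 0.12 for Ighm. Whether the HP1a and HP1g lines differ in this respect was not tested.

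The next comparison asked how the transcripts differed between naive cells and Tconv recovered from irradiated hosts. In HP1a WT cells, 3 of 5 members tested were lower in Tconv (Cd79a, Ms4a1 and Ighm), whereas edgeR called 10.2% of all 16027 genes lower and 23.1% in either direction. Cd79a, a signalling chain of the B cell receptor, was at 1.701, 2.56 and 2.32 CPM in naive and 0.626, 0.0843 and 0.645 CPM in Tconv libraries. The groups did not overlap (the same was true, with Tconv lower, of 28.4% of genes), and Cd79a fell with a log2 fold change of -2.29 ± 0.61 (SE; edgeR adjusted p = 0.0154). Ms4a1 was at 0.739, 1.01 and 0.906 CPM in naive libraries and at 0, 0.0211 and 0 CPM in Tconv. It was called lower as well (adjusted p = 0.00025). Cd79a, at 0.0843 CPM in 1 Tconv library, needed naive libraries to pass the filter. Ms4a1 passed the filter through the naive libraries where it was high, so it could enter only as lower. Since these Tconv held 1 count of Ms4a1 in all, against 156 in the naive libraries, its ratio of naive to Tconv was 108, with an exact 95% interval of 19.02 to 4275 that covers counting error only. Ighm fell from 603 ± 52.2 (SD, n = 3) CPM to 177 ± 29.6 (SD, n = 3) CPM, a log2 fold change of -1.76 ± 0.14 (adjusted p = 2.5e-05).

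Deletion of Hp1a left the direction of these differences in place. In HP1a KO cells, edgeR called 2 of 5 members, both lower in Tconv, with 7.24% of all genes called lower. DESeq2 called 3 members. Cd79a was at 2.07, 1.44 and 2.55 CPM in naive and 0.334, 0.323 and 0.429 CPM in Tconv (log2 fold change -2.45 ± 0.36, adjusted p = 0.00156). Ighm was at 570.5, 795 and 719 and 160.4, 138 and 203 CPM (log2 fold change -2.04 ± 0.17, adjusted p = 0.00014). Ms4a1 was at 0.977, 0.465 and 1.27 and 0.381, 0 and 0.238 CPM and was not called by edgeR (adjusted p = 0.109). The same 3 genes had negative fitted values in the HP1g line, where naive cells had served to choose the members and no test was made. There, Tconv minus naive was -2.92 (WT) and -1.87 (KO) on the log2 scale for Cd79a, and -2.69 and -2.18 for Ighm.

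Cd79b, the partner of Cd79a, did not follow it. In HP1a WT, Cd79b was at 0.924, 1.33 and 1.29 CPM in naive and 2.48, 2.17 and 1.88 CPM in Tconv libraries, which did not overlap, with Tconv higher, as for 29.5% of genes. Its log2 fold change of 0.89 ± 0.30 had an adjusted p of 0.0387 but stayed under the fold threshold. In HP1a KO, it was at 0.818, 0.697 and 1.603 and 4.94, 1.94 and 1.86 CPM (log2 fold change 1.49 ± 0.52, adjusted p = 0.0541). Igkc also had positive values, 0.72 ± 0.49 in WT and 1.69 ± 0.89 in KO, and was not called in either. The members thus split in this comparison, with Cd79a, Ms4a1 and Ighm lower in HP1a WT and Cd79b not.

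Genes of the other lists split in the same comparison. In HP1a WT, 4 of 6 tested genes of the B cell receptor list were lower in Tconv, among them Ighd and Cd72, and 1, Cd22, was higher. Ighd, the delta constant gene next to Ighm, went from 1.44, 3.44 and 1.95 to 0.136, 0.232 and 0.242 CPM (adjusted p = 0.00055). Cd22, an inhibitory receptor, went from 0.481, 0.146 and 0.535 to 16.4, 6.87 and 2.55 CPM (adjusted p = 0.00279). Of the surface receptors, Cr2 and Fcer2a were lower, while Tnfrsf13c, the receptor of the survival factor BAFF, and Cd40 were higher, among 4 tested. Pou2af1, a co-activator of octamer promoters, was lower at 4.33, 3.98 and 2.63 CPM against 13.1, 13.6 and 16.2 CPM (adjusted p = 0.00024). Dntt, the template-free polymerase of lymphocyte precursors, was the only called gene of 2 tested in the precursor list, at 11.4, 11.9 and 11.7 CPM in naive and 0, 0.0211 and 0.161 CPM in Tconv. MHC class II had 2 of 5 genes higher and the dendritic list 2 of 3, the erythroid list had 4 of 4 lower and the myeloid list 1 of 4 lower, and the CD8 T or NK list had 1 higher and 1 lower of 2. The plasma cell list had 0 of 1 called and the T cell list 0 of 6. Cr2, Fcer2a and Dntt stayed at or below 0.161 CPM in Tconv and passed the filter through the naive libraries. They could thus enter only as lower. Ighd, at 0.136 CPM in 1 Tconv library, needed naive libraries to pass as well. Among all 16027 genes tested, 23.1% were called in either direction and 10.2% lower, so single calls among few genes are near that share. Naive cells were selected magnetically and Tconv by FACS, so cell state and purification cannot be told apart here.

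The promoter of Cd79a is shown because this gene fell in both tested comparisons, together with that of Pax5, which did not pass the filter in either. RefSeq promoters (250 bases before to 50 after a start, build GRCm38.p6) were given for 3 of the 7 members. Capitals mark matches on either strand to the letters CAGGTG, an E-box bound by E2A, and AGGAAG, a core bound by Ets factors; CCCNNGGG, the core of the EBF motif, was also searched, and no matches overlapped.
Cd79a (chr7:24897247-24897546, plus strand): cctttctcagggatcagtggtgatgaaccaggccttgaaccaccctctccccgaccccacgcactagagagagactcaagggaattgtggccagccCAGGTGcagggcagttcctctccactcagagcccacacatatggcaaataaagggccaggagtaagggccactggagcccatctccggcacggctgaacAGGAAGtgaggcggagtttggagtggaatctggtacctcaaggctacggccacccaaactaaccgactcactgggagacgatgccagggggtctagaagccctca
Pax5 (chr4:44710645-44710944, minus strand): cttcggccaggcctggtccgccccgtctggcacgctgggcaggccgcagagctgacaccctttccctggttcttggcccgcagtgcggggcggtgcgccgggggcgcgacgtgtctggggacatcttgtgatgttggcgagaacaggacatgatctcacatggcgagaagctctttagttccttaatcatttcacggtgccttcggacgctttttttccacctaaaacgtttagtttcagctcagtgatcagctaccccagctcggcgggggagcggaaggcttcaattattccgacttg
Counted from the start site, the Cd79a promoter held CAGGTG at -154 and AGGAAG at -55. Among all 32851 promoters of the table, 20.2% held CAGGTG, 35.4% AGGAAG and 13.7% CCCNNGGG. Neither the Pax5 promoter nor the 2 of Ebf1 held any of the letters searched. A match is a description of these letters and not of binding. Only these exact letters were searched, so a site spelled otherwise would be missed, and a lack of matches does not show the lack of a site.

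The comparison of Tconv with and without Treg asked what a suppressive environment did to the same cells. Of the 4 members that passed the filter in HP1a WT, Igkc had the largest fitted change. In HP1a WT cells, Igkc was at 4.87, 5.94 and 1.77 CPM in Tconv alone and at 30.6, 25.5 and 60.6 CPM in Tconv with Treg. Every library with Treg lay above every library without, which was true of 15.7% of genes. Igkc rose with a log2 fold change of 3.23 ± 0.53 (SE; edgeR adjusted p = 0.0134), the only call among 4 members tested, while 3.54% of 15627 genes were called higher and 5.96% in either direction. Without Tconv HP1a WT replicate 1, the call was lost (log2 fold change 3.33, edgeR adjusted p = 0.0697), whereas omission of any other single library kept it. Ighm was at 182, 204 and 145 CPM alone and 351, 426 and 148 CPM with Treg and was not called (log2 fold change 0.82 ± 0.35, adjusted p = 0.229). With replicate 3 of the Treg group left out, Ighm (log2 fold change 1.14, edgeR adjusted p = 0.00466) and Pax5 (edgeR adjusted p = 0.00325) were called higher too. That library had the lowest Ighm and Pax5 of its group. Pax5 did not pass the filter with all libraries. It entered this fit through the Treg libraries where it was high, so its call adds no support. Cd79a (0.489, 2.16 and 2.42 CPM with Treg, adjusted p = 0.254) was not called, nor was Cd79b (0.0587, 2.11 and 2.03 CPM with Treg, adjusted p = 0.743).

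Igkc had positive values in the other 3 Treg comparisons, none called by edgeR. In HP1a KO, it was at 2.53, 2.44 and 21.3 CPM alone and 11.5, 3.703 and 29.4 CPM with Treg (log2 fold change 0.77 ± 1.10, adjusted p = 0.8002). In HP1g WT, it was at 1.41, 2.12 and 3.904 and 10.4, 5.69 and 17.3 CPM, without overlap, as for 6.33% of genes (log2 fold change 2.17 ± 0.53, adjusted p = 0.694), and DESeq2 called it. In HP1g KO, it was at 2.77, 10.6 and 16.99 and 120.4 and 16.01 CPM (log2 fold change 2.77 ± 0.99, adjusted p = 0.626). The HP1a KO groups overlapped widely, since 1 library in each reached over 20 CPM. The share of genes called in these comparisons was 0.44%, 0.0126% and 0%, so few genes of any kind passed there. By edgeR, 0 members were called in HP1a KO (1 with an unadjusted p under 0.05), 0 in HP1g WT (1) and 0 in HP1g KO (2), and DESeq2 called 0, 1 and 0.

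**Figure D2:**
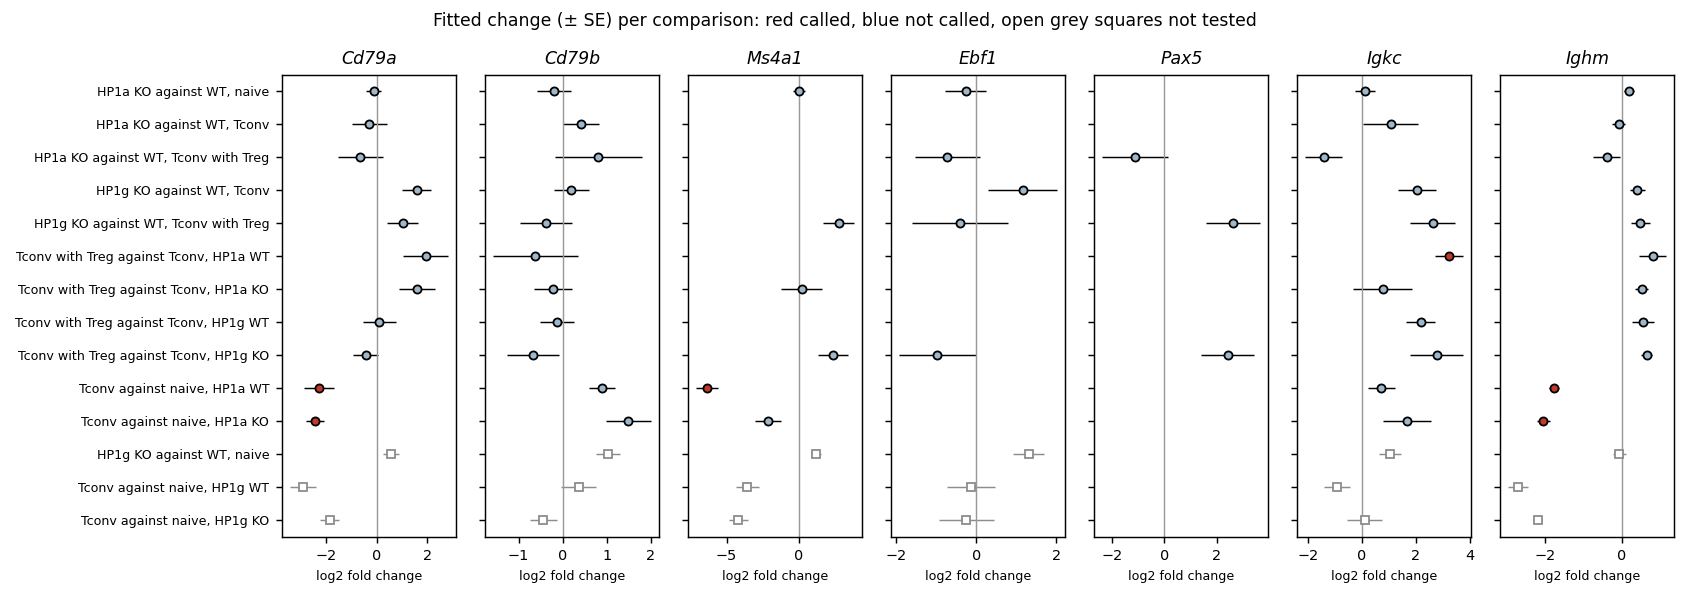
Fitted log2 fold change (x axis) of each transcript in 14 comparisons (y axis), with bars of 1 SE; red points were called, blue points were not, and open grey squares are contrasts that were not tested because naive HP1g cells had chosen the members. Missing points did not pass the filter. Red points are Cd79a and Ighm in both tested contrasts of Tconv against naive, Ms4a1 in the HP1a WT one, and Igkc with Treg in HP1a WT.

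Variable segments stayed low beside Igkc in HP1a WT and HP1g KO Tconv with Treg. They also did in replicates 1 and 2 of HP1g WT, but not in every library with Treg. In HP1a WT Tconv with Treg, the Igkv segments summed to 0.274, 1.48 and 1.22 CPM, that is 0.895, 5.81 and 2.02 CPM per 100 CPM of Igkc. The library with the highest Igkc of all, Tconv with Treg HP1g KO replicate 1, had 0.533 CPM of Igkv, or 0.442 per 100. These ratios lie below every naive library. Over all groups, the ratio was 30.8 to 81.1 (median 42.4) in naive, 0.131 to 15.1 (median 3.95) in Tconv and 0.442 to 41.7 (median 2.02) in Tconv with Treg libraries. The HP1a KO libraries with Treg had 10.7, 26.8 and 27.2 per 100. Replicates 1 and 2 of HP1g WT with Treg had 1.18 and 1.22 per 100, whereas replicate 3 had 41.7, within the naive range. In HP1a WT Tconv with Treg, Ms4a1 was at 0.0196, 0.0871 and 0 CPM, below every naive library.

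Igkc lies within a long noncoding gene, Gm30211, on the same strand of chr6:70695829-70730454 (GRCm39), and another, Gm68839, covers it on the other strand. The counting step is not stated in the sources used here to have separated overlapping genes, so Igkc and Gm30211 may share reads. Gm30211, looked at after the values of Igkc were seen, was at 0.1905, 0.506 and 0 CPM in HP1a WT Tconv and 2.64, 1.44 and 2.42 CPM with Treg (log2 fold change 3.20 ± 1.05, adjusted p = 0.123). In HP1g KO, it was at 0.192, 0.329 and 0.622 and 6.599 and 1.41 CPM. Neither of these pairs of groups overlapped, as was true of 15.7% of genes, with Treg higher, in HP1a WT. In HP1g KO, the group with Treg held only 2 libraries. The library with the most Igkc had the most Gm30211, although edgeR did not call Gm30211 in either comparison. Whether shared reads enter these values was not tested. In HP1g WT, in contrast, Gm30211 was at 0.0402, 0.0677 and 0.436 CPM alone and 0.594, 0.162 and 0.0176 CPM with Treg, which overlapped, and the library with the most Igkc of that Treg group had its lowest Gm30211.

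**Figure D3:**
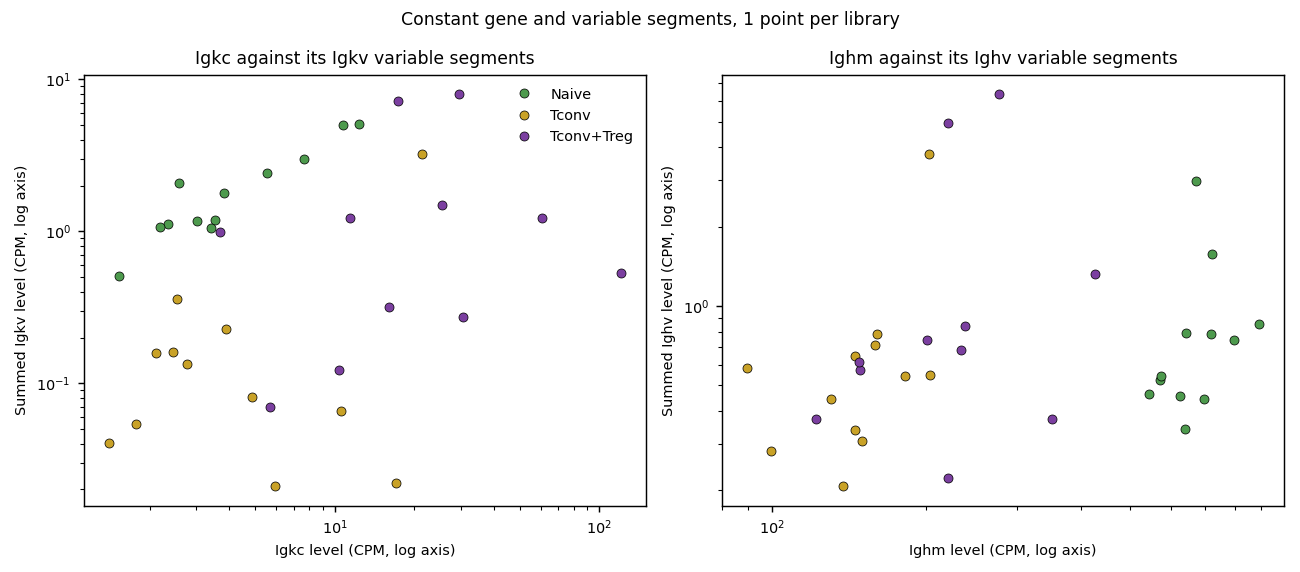
Level of Igkc against the summed Igkv segments (left) and of Ighm against the summed Ighv segments (right), in CPM on log axes; each point is 1 of 35 libraries, coloured by cell state. Naive libraries lay along a line of about constant ratio for kappa, while most Tconv and Tconv with Treg libraries lay below it, and the heavy chain segments stayed at or under 6.37 CPM at any level of Ighm.

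A pair of libraries differed from this picture, because 1 heavy segment held over 80% of at least 100 Ighv counts. In Tconv with Treg HP1a KO replicate 3, Igkv1-88 took 93.5% (90.9 to 95.5) of 449 Igkv counts and Ighv4-1 took 86.6% (82.7 to 89.7) of 358 Ighv counts (Wilson 95% intervals, counting error only). In Tconv with Treg HP1g WT replicate 3, Ighv10-1 took 88.7% (84.4 to 91.8) of 282 Ighv counts. No naive library was as uneven for kappa as the first of these, since the leading Igkv segment of naive libraries held 14.1 to 50 (median 21.4)% of the Igkv counts. The exons of these segments are printed, to show which variable segments led, from the GRCm39 reference (last 300 bases, minus strand, annotated as IG_V genes), with capitals on the codons for the Tyr-Tyr-Cys triplet that closes the framework before the joining segment.
Igkv1-88 (chr6:68839249-68839548): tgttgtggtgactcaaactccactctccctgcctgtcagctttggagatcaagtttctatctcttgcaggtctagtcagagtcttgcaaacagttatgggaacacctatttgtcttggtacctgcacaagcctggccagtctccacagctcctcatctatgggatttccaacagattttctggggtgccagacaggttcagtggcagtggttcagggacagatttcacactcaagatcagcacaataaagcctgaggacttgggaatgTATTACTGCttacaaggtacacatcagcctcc
Ighv4-1 (chr12:113911902-113912201): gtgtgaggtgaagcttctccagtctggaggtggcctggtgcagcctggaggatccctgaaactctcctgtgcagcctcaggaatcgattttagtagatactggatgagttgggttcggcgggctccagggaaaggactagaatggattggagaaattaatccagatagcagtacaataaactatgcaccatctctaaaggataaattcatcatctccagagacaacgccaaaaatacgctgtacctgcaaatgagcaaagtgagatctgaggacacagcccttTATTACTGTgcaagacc
Ighv10-1 (chr12:114442625-114442924): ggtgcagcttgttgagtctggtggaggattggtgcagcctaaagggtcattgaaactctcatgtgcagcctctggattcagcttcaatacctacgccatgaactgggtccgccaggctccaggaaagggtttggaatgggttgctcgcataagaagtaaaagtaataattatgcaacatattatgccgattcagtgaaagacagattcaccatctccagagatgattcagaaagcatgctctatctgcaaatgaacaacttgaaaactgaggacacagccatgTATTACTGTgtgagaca
All of these reference exons hold that triplet. These libraries also had more Jchain, the joining chain of secreted IgM and IgA, than any other Tconv library. Jchain was at 0.129, 0.199 and 8.05 CPM in Tconv with Treg HP1a KO. In Tconv with Treg HP1g WT, it was at 0.348, 0.0928 and 2.89 CPM. The last value lay only just above the highest of Tconv HP1a KO, 2.78 CPM, and that of Tconv with Treg HP1a WT was 2.23 CPM. Another library, Tconv HP1a KO replicate 3, had an Ighv segment at 75.1% of 237 counts, Igha at 15.7 CPM and Igkc at 21.3 CPM, the highest of its group. Ighv1-47 led the Ighv counts of 16 of 23 Tconv libraries, with or without Treg, and of 0 of 12 naive libraries. These leads rested on few counts. The fewest were 4 of 9 in Tconv HP1a KO replicate 2 (a share of 18.9 to 73.3%). The most were 20 of 43 in Tconv with Treg HP1g KO replicate 2. With the libraries led by 1 segment left out (an alternative chosen after seeing the data), 0 members were called in the Treg comparison of HP1a KO, as with all libraries.

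Between genotypes, edgeR called no member in Tconv with or without Treg, and DESeq2 called 1, Igkc in HP1g Tconv alone. In HP1a cells, edgeR called 0 of 4 members without Treg (0 with an unadjusted p under 0.05; DESeq2 0) and 0 of 6 with Treg (0; DESeq2 0), against 0.103% and 0.123% of all genes. In HP1g cells, it called 0 of 5 without Treg (2 unadjusted; DESeq2 1) and 0 of 7 with Treg (3 unadjusted; DESeq2 0), against 0.0437% and 0%. In HP1g Tconv, Cd79a was at 0.462, 0.158 and 0.145 CPM in WT and 1.095, 0.636 and 0.555 CPM in KO, without overlap, as for 6.86% of genes (log2 fold change 1.58 ± 0.57, adjusted p = 0.503). Igkc was at 1.41, 2.12 and 3.904 and 2.77, 10.6 and 16.99 CPM, which overlapped (log2 fold change 2.04 ± 0.70, adjusted p = 0.482), and was the gene that DESeq2 called. With Treg, 4 of 7 members were higher without overlap in HP1g KO (Cd79a, Pax5, Ms4a1 and Ighm), in a comparison where the same was true of 15% of genes and the KO group had 2 libraries. Pax5 and Ms4a1 passed the filter there through the KO libraries where they were high. They could thus enter only as higher, and their unadjusted p-values and lack of overlap add no support. Ms4a1 was at 0, 0.0464 and 0.123 CPM in WT and 0.464 and 0.364 CPM in KO (adjusted p = 0.388). Cd79b and Ebf1 had negative fitted values there, -0.37 ± 0.59 and -0.41 ± 1.19, so the members did not share 1 direction. The interaction of genotype and Treg was called for 0 of 7 members in either line by edgeR and by DESeq2, and 0 had an unadjusted p under 0.05, against 0.139% (HP1a) and 0% (HP1g) of all genes called.

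The transcription factors were near the limit of detection. Ebf1 ranged from 0.146 to 0.649 CPM in naive, 0.0318 to 0.995 CPM in Tconv and 0.0696 to 0.798 CPM in Tconv with Treg libraries, and edgeR called no change of it in the comparisons as fitted here. Pax5 stayed at or below 0.157 CPM in naive and 0.307 CPM in Tconv libraries. With Treg, it was at 1.095, 1.35 and 0.0519 CPM in HP1a WT, 0.04304, 0.795 and 0.321 CPM in HP1a KO, 0.143, 0 and 0.176 CPM in HP1g WT and 0.859 and 0.506 CPM in HP1g KO. At least 1 library of each Treg group therefore held more Pax5 than any naive library, by a small margin in HP1g WT. Pax5 overlaps 5 other annotated genes, so its reads may be shared. Pou2af1, the co-activator named above, was called: it was at 4.33, 3.98 and 2.63 CPM in HP1a WT Tconv and 59.98, 77.2 and 14.4 CPM with Treg, a log2 fold change of 3.80 ± 0.60 (adjusted p = 0.0115).

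The other lists moved in the HP1a WT Treg comparison too. Of the B cell receptor list, 2 of 4 tested genes were higher with Treg, Ighd (0.136, 0.232 and 0.242 CPM alone, 4.205, 4.86 and 2.49 CPM with Treg, adjusted p = 0.00425) and Blk (0, 0 and 0.0806 and 0.606, 1.002 and 2.03 CPM, adjusted p = 0.0379), a kinase of the Src family used in B cells. Ighd stayed at or below 0.242 CPM alone, and Blk was at or near 0. Both passed the filter through the Treg libraries, so they could enter only as higher. Cd22 was at 16.4, 6.87 and 2.55 and 18.4, 28.9 and 3.64 CPM and Cd72 at 12.3, 16.6 and 13.1 and 11.2, 23.5 and 7.18 CPM, with 0 calls. The median log2 fold change of the members tested was 1.37 and that of all genes tested 0.03. Genes of antigen presentation rose beside them, with 4 of 5 MHC class II genes called, Cd74 from 24.5, 39.6 and 25.8 to 119.9, 221 and 49.7 CPM and H2-Ab1 from 6.88, 5.56 and 8.84 to 30.9, 72.95 and 18.5 CPM. Of the myeloid list, 3 of 6 were called higher (Adgre1, Tyrobp and Cd14) and the list summed to 6.14 to 6.69 CPM alone and 18.7 to 42.8 CPM with Treg. Of the dendritic list, 1 of 3 was called, Itgax, and it was lower. The erythroid (0 of 3), surface receptor (0 of 2), precursor (0 of 1), plasma cell (0 of 2), CD8 T or NK (0 of 2) and T cell (0 of 6) lists had no call. Of all genes tested, 3.54% were called higher and 5.96% in either direction. The part of these other cells' transcripts in the Igkc value was not tested. Across all Tconv libraries, with or without Treg, the erythroid list ranged from 1.41 to 4895 CPM.

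**Figure D4:**
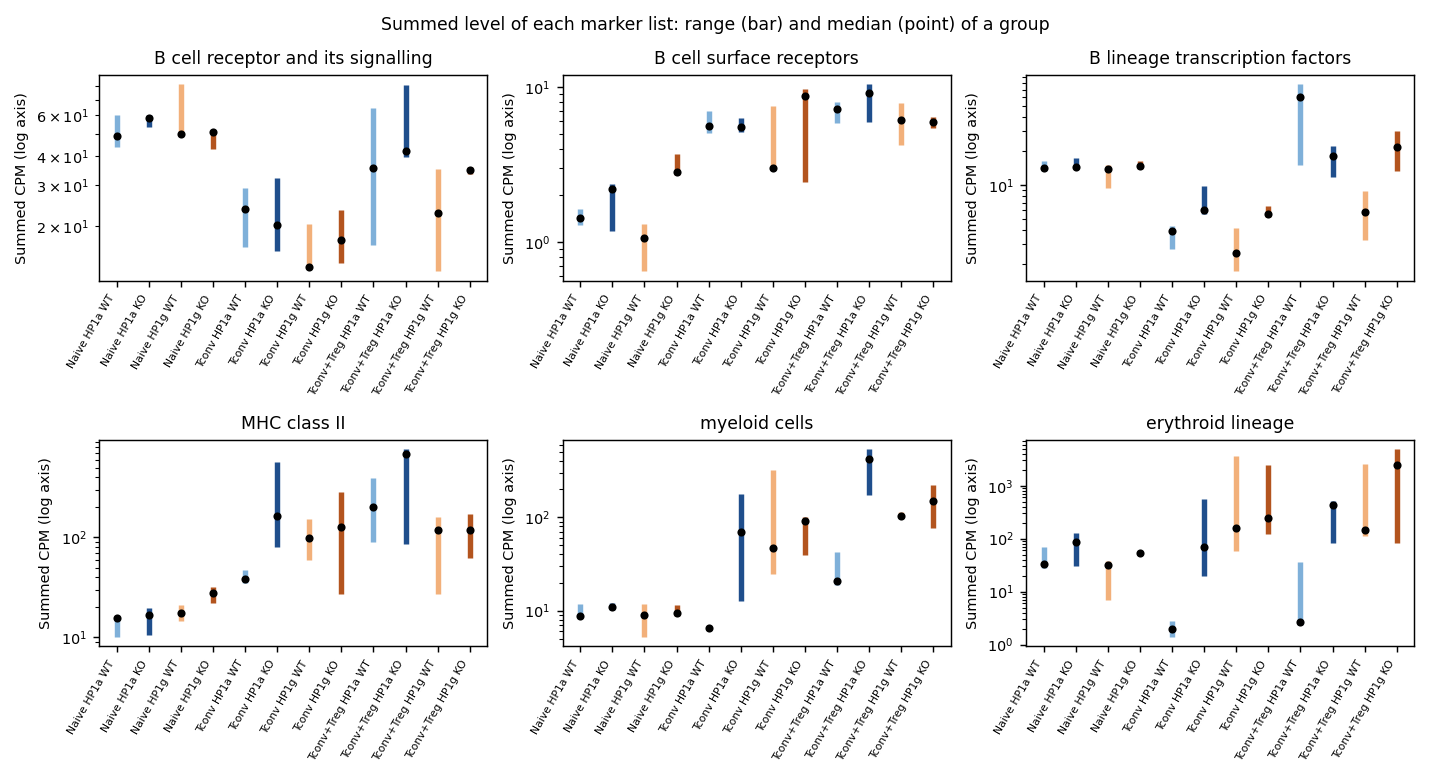
Summed level of 6 marker lists (CPM, log axis) by group; bars span the lowest to the highest library and points are medians. The transcription factor list of Tconv with Treg HP1a WT reached 78.6 CPM, mostly Pou2af1, while the myeloid list spanned 5.27 to 11.95 CPM over naive libraries and 6.14 to 323 CPM over Tconv libraries.

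The members did not vary as a block. Over the 12 naive libraries, the 21 pairs of members had Pearson's r of log2(CPM + 0.5) from -0.38 to 0.87 (median 0.41); these include the 6 naive HP1g libraries that chose the members, which enters these values. Over the 23 Tconv libraries, the range was -0.32 to 0.75 (median 0.20). In the Tconv libraries, Cd79b and Ms4a1 had r = 0.14, and Pax5 and Ighm 0.75. These are descriptions over libraries that share groups and low counts. Among 12792 other genes averaging 1 CPM or more, those whose pattern over the 29 libraries outside naive HP1g cells was most like the mean of the 7 were Cd9, Ctss, Ephx1, Shld1, Cd27, Dock4, 4930417O13Rik, Adamts6, Prg4 and Susd1, with r from 0.82 to 0.85. None of these 10 is one of the other B lineage genes listed. However, the search left out listed genes below 1 CPM, such as Cr2 (mean 0.233 CPM), Fcer2a (0.203 CPM) and Spib (0.378 CPM). Their absence was thus fixed in advance. Taken singly (an addition made after the values were seen), Pax5 was most like Cebpa, Il6st, Dennd2d, Pou2af1 and Pear1 over the 23 Tconv libraries (r from 0.92 to 0.93), and Ighm was most like Syp, Gabrr2, Msrb2, Ift80 and Slamf6 (r from 0.82 to 0.84).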

How the data were processed

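Total RNA of purified CD4+ T cells (10 pg per library, per the labels) was amplified with a SMART-Seq kit and sequenced as pairs. Per the study's methods and the submitters' processing notes, the authors aligned reads with STAR to GRCm39 and deposited estimated counts per gene from Salmon, so reads of similar or overlapping genes are split by a model. The counts were rounded here, low genes were filtered (filterByExpr), libraries were scaled by TMM and each comparison was fitted on its own groups with edgeR 4.0.16 (R 4.3.3, quasi-likelihood test, robust). A gene was called at a Benjamini-Hochberg adjusted p under 0.05 and an absolute log2 fold change above 1. DESeq2 1.42.0 was an alternative, and the fits were tested on simulated counts. Depth was 37029519 to 63042245 counts per library.

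Levels are CPM. Positions and exon lengths come from the GENCODE annotation of GRCm39, and promoters from a RefSeq table of GRCm38.p6. The 7 members were named in every comparison; of other lists (B cell receptor and its signalling, B cell surface receptors, B lineage transcription factors, B cell precursors, plasma cells, MHC class II, myeloid cells, dendritic cells, erythroid lineage, CD8 T or NK cells and T cells) at most the 4 most abundant genes were to be named, along with the 10 genes most like the members. Genes named beyond that rule (Blk, Fcer2a, Fcrla, Cd4, Tyrobp, Adgre1, Cd14, Gm30211 and the variable segments) were chosen after their values were seen. The members and lists were chosen with earlier results of these data known. Same-numbered libraries deviated together in HP1a naive KO and WT (r of deviations 0.29 to 0.65) and in HP1g Tconv KO and WT (0.11 to 0.43), from the replicate numbers in the labels; the block changed no member's call there. No pair of libraries within a group agreed within sampling noise. Tconv with Treg HP1g KO replicate 3 was excluded, as the authors had done on quality measures of its reads. Results for 1 marker gene and 1 variable segment are not reported here.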

Additional observations from a re-analysis of the deposited data

Results flagged for a closer look

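The library left out, Tconv with Treg HP1g KO replicate 3, held 385 counts of Pax5, or 10.4 CPM on raw totals. The 3 Tconv with Treg HP1g WT libraries, measured the same way, lay at 0 to 0.176 CPM and the 2 other KO libraries at 0.518 to 0.858 CPM. It was singled out because the signal lies in a library that no comparison used and is above the controls. No other member lay above all of these libraries in it: Ighm was at 9.93 CPM, against 117 to 220.1 CPM in WT, and Igkc at 1.03 CPM, against 5.45 to 17.3 CPM.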

How the results depend on the processing

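Of 170 alternative counts of members called, 164 stayed within 1.5 times the count reported. DESeq2 called 1 member (Igkc) in HP1g Tconv KO against WT and 1 (Igkc) in the Treg comparison of HP1g WT, where edgeR called 0. For Tconv against naive in HP1a KO, DESeq2 called 3 and edgeR 2. In the Treg comparison of HP1a WT, 2 were called with no filter on low counts and 3 with all libraries of the line in 1 fit, and leaving out 1 library each gave 0 to 3. The fit with the replicate number as a block changed no count of members called; it turned the uncalled Ms4a1 to -0.031 in HP1a naive KO against WT and to -0.041 for Treg in HP1a KO. With the left-out library included, log2 values of Ighm became -0.0078 in HP1g KO against WT with Treg and -0.42 in the HP1g interaction, and of Pax5 0.90 in the latter. The 84 group means moved by less than 1 SD on raw totals. Of the 10 genes most like the members, 4 were shared over all 35 libraries and 9 with a pseudocount of 0.1. Depth limits Pax5, Ebf1 and Ms4a1, which fell to a few counts or 0 in many libraries.

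Uncalled log2 fold changes that changed sign when 1 library was left out had these ranges: for HP1a naive KO against WT, Cd79a -0.32 to 0.082, Ms4a1 -0.28 to 0.35, Cd79b -0.64 to 0.0376, Igkc -0.17 to 0.51, and for HP1a Tconv KO against WT, Cd79a -0.80 to 0.063, Cd79b -0.20 to 0.66, Igkc -0.75 to 1.51, Ighm -0.24 to 0.0395, and for HP1g Tconv KO against WT, Cd79b -0.0414 to 0.60, Ebf1 -0.16 to 1.93, and for HP1g KO against WT with Treg, Cd79b -1.42 to 0.22, Ebf1 -0.90 to 1.71. The same was seen for Treg in HP1a KO, Ms4a1 -1.61 to 0.93, Cd79b -0.46 to 0.40, Igkc -0.22 to 2.59, and for Treg in HP1g WT, Cd79a -0.18 to 0.85, Cd79b -0.33 to 0.26, and for Treg in HP1g KO, Ebf1 -1.38 to 0.33, and for Tconv against naive in HP1a KO, Igkc -0.13 to 2.13. It was also seen for the HP1a interaction, Cd79a -0.79 to 0.17, Cd79b -0.18 to 1.0, Ighm -0.62 to 0.0111, and for the HP1g interaction, Cd79b -1.59 to 0.00809, Ebf1 -2.37 to 0.54, Igkc -1.51 to 1.41, Ighm -0.17 to 0.36.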
